A study of Mus musculus with 18 samples.

Results

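The regions described here became listed as open chromatin on differentiation of mouse skeletal muscle cells whichever genotype was examined. They were chosen by presence in ATAC-seq peak lists: a merged region had to contain a peak of both myocyte lists, deposited as MyoD-null and as wild type, and no peak of the MyoD-null or wild-type myoblast list. On chromosomes 1 to 19 the 4 lists merged into 139354 regions, and 4713 of them, or 3.38% (95% Wilson interval 3.29 to 3.48), met the rule. They are called gained regions below. Together they covered 2.33 Mb, with a median width of 438 bp (quartiles 351 and 584).

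ATAC-seq uses a transposase to insert sequencing adapters into accessible DNA. The 4 groups were myocytes of a MyoD knockout after 24 h of myogenic differentiation, wild-type myocytes after the same 24 h, MyoD knockout myoblasts and wild-type myoblasts, with 3 samples in each and skeletal muscle as the source. The authors called 1 peak list a group on the merged samples, so every value below belongs to a list and has no error between replicates, and no test between groups was possible. Intervals cover counting error only. No source used here gives the age of the animals, the way the cells were obtained or the knockout allele.

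Myoblasts are proliferating muscle precursors. When growth factors are withdrawn they leave the cell cycle, switch on contractile genes as myocytes and later fuse into fibres. MyoD is a basic helix-loop-helix transcription factor that binds E-box sequences, can act on closed chromatin and directs this programme together with its relatives Myf5, myogenin and MRF4 and with MEF2 factors. In MyoD-null mice muscle still forms, with Myf5 taking over part of the role.

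The recorded genotypes of the myocyte lists conflict. The list deposited for MyoD-null myocytes carries WT in its peak names, and the list deposited for wild-type myocytes carries MKO. Because the rule asks for a peak in both, membership is the same under either reading. The myocyte peak names also start with a tag that the myoblast names lack, so differentiation and any difference in how the lists were made cannot be told apart. Positions are given in mm9 and were not assigned to genes, because the gene table used here belongs to another build. Sequences of the regions were not used here for the same reason.

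A gained region had to clear the detection limit in each myocyte list and miss it in each myoblast list. The genome-wide background is the lowest number of reads that the caller set a summit against, and the spacing of the deposited folds gives it. It was 6.34 in the myocytes deposited as MyoD-null and 5.29 in those deposited as wild type. The value was 8.54 in MyoD-null and 8.18 in wild-type myoblasts. Over these backgrounds a summit needed 17 and 15 reads in the myocyte lists, a fold enrichment of 2.45 and 2.55. In the myoblast lists it needed 21 and 20 reads, a fold of 2.31 and 2.29. Fold enrichment is the authors' ratio of reads at the summit to the local background. The myoblast limits were therefore slightly lower than the myocyte limits as folds and higher as reads. They apply over the genome-wide background, where 1423 members, or 30.2%, had their summits in both myocyte lists. Over a raised local background more reads were needed. A region missing from the myoblast lists was not detected at this depth and may still have been open.

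The clearest gained region lay on chromosome 6 from 51917374 to 51918127. Its fold enrichment was 11.2 in the myocytes deposited as MyoD-null and 10.8 in those deposited as wild type, from 81 and 67 reads at the summit. The summits were 10 bp apart, and the nearest peak of either myoblast list was 19.9 kb away. It was the one member above a fold of 8 in both lists.

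The next strongest members, ranked by the lower of their 2 folds, had similar values in both myocyte lists. On chromosome 12, the region from 9305693 to 9306428 had folds of 7.77 in the myocytes deposited as MyoD-null and 8.04 in those deposited as wild type. On chromosome 13, the region from 88938694 to 88939191 reached 7.496 and 7.80 in the same order of lists, with 54 and 48 reads. A second member followed 1.45 kb further on, from 88940642 to 88941032, with 7.35 and 6.77. Both of these chromosome 13 sites were thus among the 12 strongest members of the class.

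On chromosome 5, the region from 129892091 to 129892742 had folds of 8.31 in the myocytes deposited as MyoD-null and 7.37 in those deposited as wild type, with summits 2 bp apart. On chromosome 2, the region from 104350167 to 104350898 had 8.18 and 6.84 in that order. Chromosome 6 held a further member from 35468887 to 35469630, with 7.36 in the first list and 9.58 in the second. The widest gap among the 12 was at chromosome 1 from 174099871 to 174100639, where the fold was 6.68 in the myocytes deposited as MyoD-null and 9.81 in those deposited as wild type.

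The remaining 4 of the 12 lay on chromosomes 4, 16, 14 and 8. The region on chromosome 4 from 49122787 to 49123240 had folds of 7.22 in the myocytes deposited as MyoD-null and 7.16 in those deposited as wild type, and its nearest fellow member was 1111.4 kb away. The chromosome 16 region from 78286944 to 78287645 rested on 51 and 43 reads in those lists, for a fold of 7.09 in the first. The chromosome 8 region from 130802137 to 130802575 had 6.81 and 6.83, with summits 3 bp apart. The chromosome 14 region from 9621782 to 9622367 had 6.95 and 8.43 and was the most remote, with no myoblast peak within 122 kb. Across the 12, neither myocyte list was higher throughout.

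**Figure D1:**
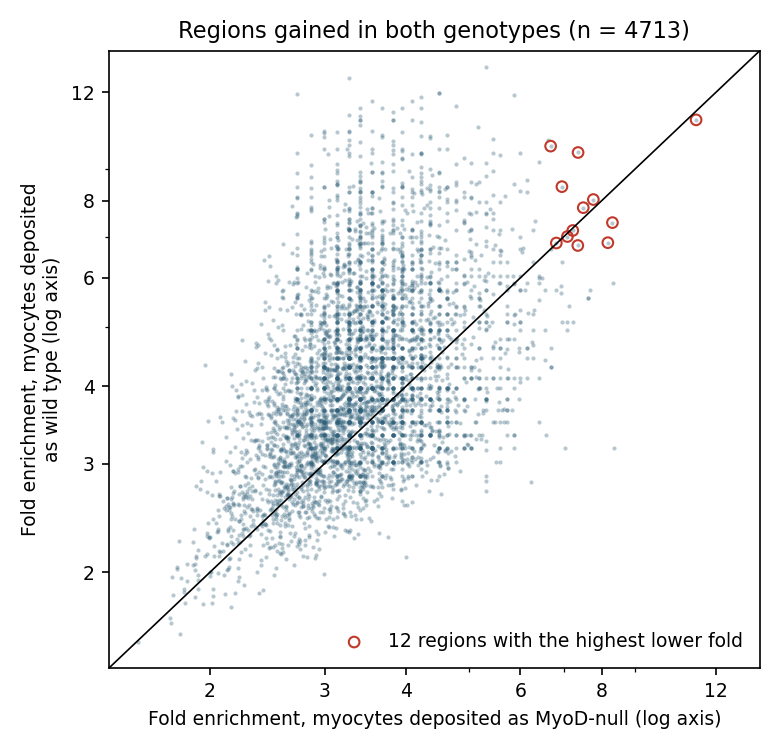
Each point is 1 of the 4713 gained regions, placed by its fold enrichment in the myocytes deposited as MyoD-null (horizontal) and as wild type (vertical), both on log axes. Most points lie above the line of equal folds, and the 12 regions with the highest lower fold (circles) sit near it at folds of 6.68 or more.

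Most gained regions were weak. The median fold was 3.38 in the myocytes deposited as MyoD-null (range 1.55 to 11.2) and 3.95 in those deposited as wild type (range 1.54 to 13.2), with a median of 30 and 34 reads at the summit. Regions present in all 4 lists had medians of 5.04 and 5.80 in the same myocyte lists. A fold of at least 5 in both myocyte lists was reached by 158 gained regions, or 3.35%, against a background of 39.9% over the 73723 regions found in both myocyte lists. The rule used these values, so the contrast describes the class and is not a test of it.

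Gained regions had somewhat higher folds than the regions listed in 1 myocyte list alone. Their median of 3.38 in the myocytes deposited as MyoD-null compares with 3.20 for the 4749 regions found only there. Their median of 3.95 in the myocytes deposited as wild type compares with 3.77 for the 22506 regions found only there. Listing in the other myocyte list defines these classes, so this contrast too describes them and is not a test. Widths went the same way, with 438 bp for gained regions against 273 and 334 bp for those 2 classes, although a merged region from both lists spans both peaks and is wider by construction. The single peaks inside gained regions had median widths of 305 bp (MyoD-null label) and 390 bp (wild-type label).

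**Figure D2:**
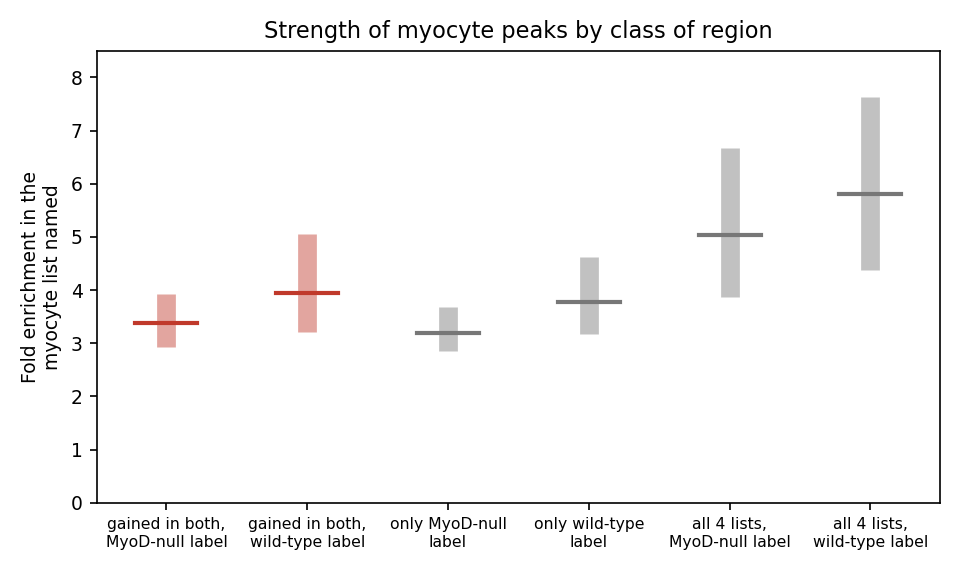
Fold enrichment in the myocyte list named under each bar, by class of region; thick bars span the quartiles and thin lines mark the medians. The medians of the gained regions, 3.38 and 3.95, lie just above those of regions in 1 myocyte list alone and below the 5.04 and 5.80 of regions in all 4 lists.

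The myocyte folds of the members were also set beside the myoblast fold limits. In 267 gained regions, or 5.67%, both myocyte folds were at least 4.61, which is 2 times the higher of the myoblast limits over the genome-wide background. In 264 regions, or 5.60%, the lower fold was under that limit of 2.31. Folds are not on one scale between stages, so these counts give no bound on the difference between myocytes and myoblasts. At regions in all 4 lists the median was 5.04 and 5.80 in the myocytes deposited as MyoD-null and wild type, against 4.40 and 4.37 in MyoD-null and wild-type myoblasts. Shares past folds of 4.61 and 2.31 were not computed over all regions in both myocyte lists. By the lower myocyte fold, 9.89% of gained regions were under 2.5 and 3.35% were at 5 or more. For regions in all 4 lists the shares were 2.10% and 45.3%.

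Members at the edge of the class show how little separated them from other regions. By the higher of the −log10 q values, the weakest was at chromosome 9 from 95540393 to 95540725, with folds of 2.23 and 2.24 and −log10 q values of 3.18 and 2.70 in the myocytes deposited as MyoD-null and wild type. A region on chromosome 1 from 90334285 to 90334710 rested on 18 and 17 reads, and one on chromosome 17 from 50309779 to 50310078 on the same 18 and 17. The first and the last of these had a myoblast peak 339 and 314 bp away. Just outside the class, a region on chromosome 5 from 36634955 to 36635236 had folds of 2.86 and 3.16 in the same myocyte lists but was listed in wild-type myoblasts at a fold of 2.10 and a −log10 q of 2.33. Similar regions were at chromosome 2 from 38833194 to 38833692, kept out by a MyoD-null myoblast peak of −log10 q 2.36, and at chromosome 7 from 31310886 to 31311429, kept out by a wild-type myoblast peak of 2.40. Of all members, 3342 or 70.9% had a −log10 q of 5 or more in both myocyte lists, and 653 or 13.9% had 10 or more. Shares past these q limits were not computed over all regions in both myocyte lists, so these counts only describe the members.

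The rule did not use the position of the summit itself, but it required peaks of both myocyte lists in 1 merged region, which limits how far apart their summits can lie. The agreement is therefore a description, and no value expected from overlap alone was computed. The median distance between the summits was 51 bp, and 74.9% of gained regions (73.7 to 76.2) had them within 100 bp. This is near the 80.01% at regions in all 4 lists and the 78.06% between the myoblast lists at regions lost in both genotypes, which are in both myoblast lists and neither myocyte list. Stronger members agreed better. Except for a dip to 69.5% between folds of 2.5 and 3, the share was higher at higher lower folds, being 72.3% under 2.5, 75.04% between 3 and 4, 85.05% between 4 and 5, and 89.2% at 5 or more. At regions in all 4 lists it was, for the same 4 ranges of strength, 68.8%, 73.7%, 78.8% and 85.97%. Between 2.5 and 3 it was 70.3% at those regions, above the 69.5% of gained regions.

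Nearly all members were simple. A single peak of each myocyte list made up 4682 of the 4713 regions, and 31 held more than 1 peak of a list. These shares were not computed over all regions in both myocyte lists, so the counts only describe the members. The widest member was 1914 bp, at chromosome 7 from 108982440 to 108984353, with folds of 2.15 and 3.13 in the myocytes deposited as MyoD-null and wild type over raised local backgrounds of 30.2 and 46.9 reads. It ended 461 bp from a region of all 4 lists. The next widest were 1821 bp at chromosome 3 from 79793007 to 79794827, with folds of 4.36 and 6.03, and 1760 bp at chromosome 18 from 62191524 to 62193283, with 3.27 and 6.77.

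Folds at the same gained region differed between the myocyte lists, mostly in favour of the list deposited as wild type. The median log2 ratio of the MyoD-null label over the wild-type label was -0.22 (quartiles -0.53 and 0.04), and 3409 members or 72.3% were stronger under the wild-type label. Regions in all 4 lists had the same lean, with a median of -0.15 and 69.7% stronger under that label, so the lean was seen in both classes. Past a ratio of 1.5, the MyoD-null label was higher in 69 gained regions or 1.46%, against a background of 2.45% of regions in both myocyte lists. The wild-type label was higher by that factor in 1044 or 22.2%, against a background of 13.6%. Regions in all 4 lists had 2.503% and 12.4%.

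The gap between the classes varied with strength. Among regions whose lower fold was under 2.5, the median log2 ratio was -0.15 for gained regions and -0.02 for regions in all 4 lists. Between 2.5 and 3 it was -0.25 and -0.21, and between 4 and 5 it was -0.22 and -0.18. Among regions whose lower fold was between 3 and 4, the median log2 ratio was -0.22 for gained regions and -0.22 for regions in all 4 lists. At 5 or more it was -0.15 for the 158 gained regions and -0.13 for 29013 regions in all 4 lists. The shares past a ratio of 1.5 were not compared at like strength. Over all gained regions, the fold in one list was a weaker guide to the fold in the other, with a Spearman rho of 0.44 against 0.73 at regions in all 4 lists. These are correlations across regions between lists called on 3 merged samples each, over a narrower range of folds in the gained class.

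A few members were uneven enough to name, and these 4 were picked after their values were seen. At chromosome 14 from 49298989 to 49299754 the fold was 8.36 in the myocytes deposited as MyoD-null and 3.18 in those deposited as wild type, from 62 and 19 reads. At chromosome 6 from 119549632 to 119550332 the values were 6.24 and 2.80. In the opposite direction, chromosome 6 from 71457073 to 71457668 had 2.73 under the MyoD-null label and 11.9 under the wild-type label, from 19 and 82 reads. Chromosome 4 from 64360943 to 64361732 had 3.27 and 12.7. Which genotype these differences belong to depends on the conflicting records.

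How often a newly listed myocyte region was shared by the other myocyte list was then followed by strength. The 4713 gained regions made up 49.8% (48.8 to 50.8) of the 9462 regions that had a peak under the MyoD-null label and none in a myoblast list. They made up 17.3% (16.9 to 17.8) of the 27219 such regions under the wild-type label. With the fold in the first list, the shared part climbed, being 43.2% under 2.5, 49.7% between 3 and 4 and 70.7% at 5 or more. With the fold in the second list it stayed low, at 17.3% under 2.5, 15.25% between 3 and 4 and 21.2% at 5 or more. Over all folds, the matching shares for regions with a myoblast peak were 91.4% under the MyoD-null label and 84.7% under the wild-type label. The list with the wild-type label was the longer, with 109753 peaks against 86575, and the part of list length was not tested. Listing in the other myocyte list defines the class, so these shares describe it and are not a test.

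Even the strongest newly listed peaks under the wild-type label were mostly unshared. Of the 847 regions with a fold of 8 or more there and no myoblast peak, 189 or 22.3% (19.6 to 25.2) were also listed under the MyoD-null label. Of the 14129 regions of that fold with a myoblast peak, 13652 or 96.6% were. Under the MyoD-null label only 6 regions without a myoblast peak reached a fold of 8, and 5 of them were shared.

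**Figure D3:**
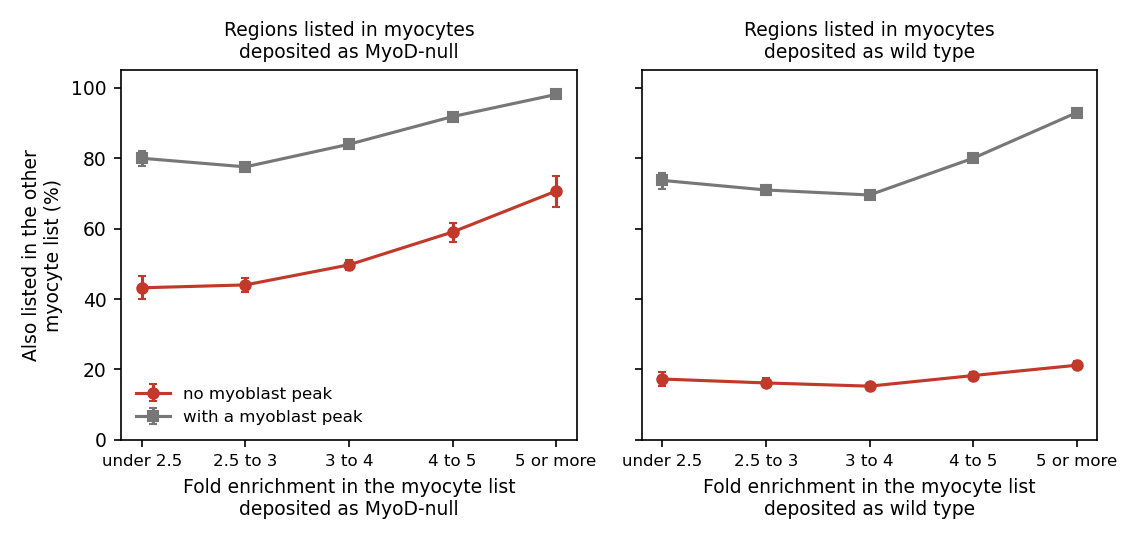
Share of regions also listed in the other myocyte list (vertical, percent, with 95% Wilson intervals) by fold enrichment in the list deposited as MyoD-null (left) or as wild type (right), for regions with no myoblast peak (circles) and with one (squares). Without a myoblast peak the share reaches 70.7% in the left panel and 21.2% in the right one.

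Gained regions occurred on every chromosome examined. Their share of all merged regions ran from 2.82% on chromosome 12 to 3.97% on chromosome 18, with a median of 3.25%. The 158 members with a fold of 5 or more in both myocyte lists were also spread over all 19 chromosomes, from 1 on chromosome 19 to 15 on chromosome 2. For regions lost in both genotypes the share ran from 3.82% to 5.57%, with chromosomes 14 and 12 at the upper end, where gained regions were at 3.17% and 2.82%.

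**Figure D4:**
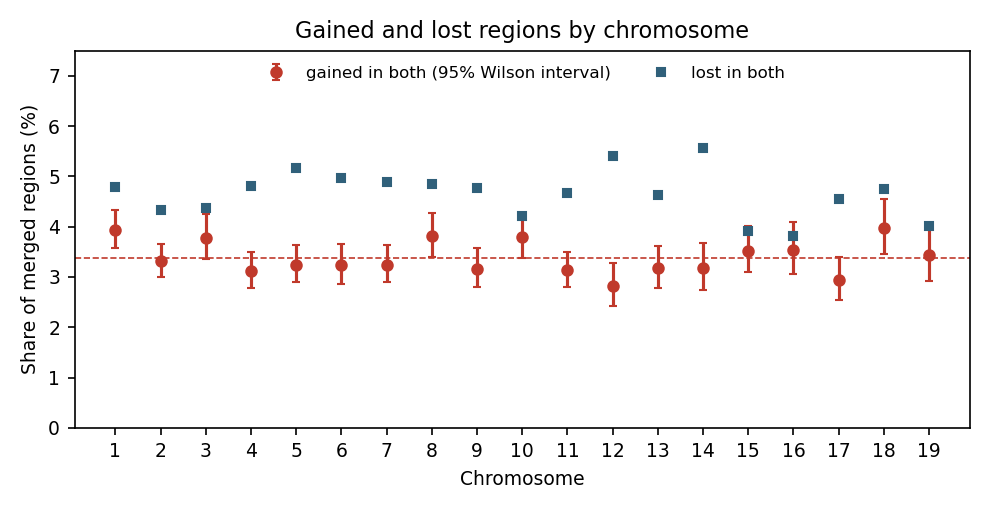
Share of merged regions on each chromosome that were gained in both genotypes (circles, with 95% Wilson intervals; dashed line, 3.38% overall) or lost in both (squares). The gained share stays between 2.82% and 3.97%.

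At the scale of 1 Mb, members followed the overall density of open chromatin. Of 2332 windows with any region, 1609 or 69.0% held a gained region, the median was 1, and 10 windows held 10 or more, with a maximum of 12. Across windows, the number of gained regions followed the number of all regions with a Spearman rho of 0.73, and that of lost regions with 0.70. Windows share the same lists, and all regions include the members.

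At finer scale the spacing of gained regions was near that of a class of like size. The median distance from one to the next nearest was 87.9 kb (83.5 to 94.998), and 471 of the 4713, or 9.99%, had another within 10 kb. For regions lost in both genotypes, which were more numerous at 6522, the median was 76.7 kb and 9.81% had another within 10 kb. The class of like size was the 4749 regions listed only under the MyoD-null myocyte label. Its median was 89.1 kb, and 10.95% had another within 10 kb. Runs of consecutive merged regions without a region of another kind between them held 390 gained regions, or 8.28%, and 1020 lost regions, or 15.6%. The share in runs was 9.01% for regions only under the MyoD-null label and 35.9% for the 22506 only under the wild-type label.

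Some members formed local groups. Joining members less than 5 kb apart gave 122 groups with 250 members, or 5.30% of the class, and 5 groups had 3 or more. The share was similar in other classes. It was 5.15% for lost regions, with 6 groups of 3 or more. For regions only under the MyoD-null myocyte label it was 5.685%, with 2 such groups. The tightest large group of gained regions lay on chromosome 10 and held 4 members within 4.85 kb, from 17084003 to 17088856. Their folds were 6.92, 3.43, 3.37 and 4.46 in the myocytes deposited as MyoD-null and 5.67, 2.75, 5.33 and 4.35 in those deposited as wild type. No myoblast peak fell between them.

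The strong pair on chromosome 13 belonged to a group of 3 that ended at 88945714, with a weaker member of folds 4.63 and 3.18 under the MyoD-null and wild-type labels. Further groups of 3 with moderate folds were on chromosome 10 from 13756190 to 13766437 and on chromosome 5 from 148408103 to 148419111. The fifth group, on chromosome 5 from 137549991 to 137554909, was weak, with folds of 1.88 to 2.49 under the MyoD-null label and 2.05 to 2.54 under the wild-type label. None of these groups contained a myoblast peak. The groups were named after their values were seen.

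By fixed windows of 100 kb, 3124 windows held 1 gained region, 602 held 2, and 3 held 5. On chromosome 3, the window from 7400001 to 7500000 held 6 peaks of the myocyte list with the MyoD-null label and 9 of that with the wild-type label, against 1 in each myoblast list. Its 5 members had folds of 2.77 to 4.63 and 3.44 to 8.29 in the myocyte lists. Only 9 merged regions lay in this window, 1 of them in all 4 lists, so gained regions were the majority there.

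A second chromosome 3 window, from 54900001 to 55000000, had 17 peaks in each myocyte list and 10 in each myoblast list, with 5 gained and 9 all-list regions among 18. On chromosome 8, the window from 123900001 to 124000000 also held 5 members, with 13 and 14 peaks under the MyoD-null and wild-type myocyte labels against 12 and 10 in MyoD-null and wild-type myoblasts. The chromosome 10 window around the group of 4 had 6 and 9 against 3 and 3 peaks. On chromosome 9, the window from 79500001 to 79600000 held 4 members, with 9 and 9 peaks against 5 and 3. The windows were picked for their gained regions, each of which adds a peak to both myocyte lists and none to a myoblast list, so the direction of these peak counts is largely set by the choice.

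Gained regions lay close to chromatin that was open in every group. The median distance to the nearest region in all 4 lists was 5.40 kb (5.22 to 5.66), and 69.4% lay within 10 kb of one. For regions lost in both genotypes the median was 11.04 kb (10.5 to 11.4), and 47.3% lay within 10 kb. The classes found in a single myocyte list, MyoD-null or wild type by deposit, had medians of 5.28 and 6.94 kb. Regions in all 4 lists lay at a median of 6.21 kb from each other, with 66.3% within 10 kb. Proximity was thus shared with the other classes that appeared in myocytes alone and with regions in all 4 lists. From gained regions, the nearest region lost in both genotypes was at a median of 100.5 kb.

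Distance grew with strength. Gained regions with a lower fold under 2.5 had a median of 1.23 kb to the nearest region of all 4 lists, those between 3 and 4 had 6.96 kb, and the 158 with 5 or more had 14.7 kb. The same order held for lost regions, with 2.86, 15.1 and 47.6 kb, the last over 17 regions. Lost regions were binned by the lower of their myoblast folds, so bins of the same name may differ in strength between stages. The order also held for regions listed only under the MyoD-null label, from 1.43 kb under 2.5 to 11.5 kb at 5 or more. Those only under the wild-type label had 1.47 and 10.8 kb, and regions in all 4 lists, to each other, had 1.17 and 8.32 kb. Local background moved with this. Its median was 19.3 reads in the myocytes deposited as MyoD-null and 20.4 in those deposited as wild type for members under 2.5, against 6.34 and 5.29 for members at 5 or more. The 1423 members over the genome-wide background in both lists had a median of 15.02 kb, with 14.9 kb between folds of 3 and 4 and 21.3 kb at 5 or more. The other 3290 had 3.45 kb. The part of the local background in the relation was not tested beyond this split.

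**Figure D5:**
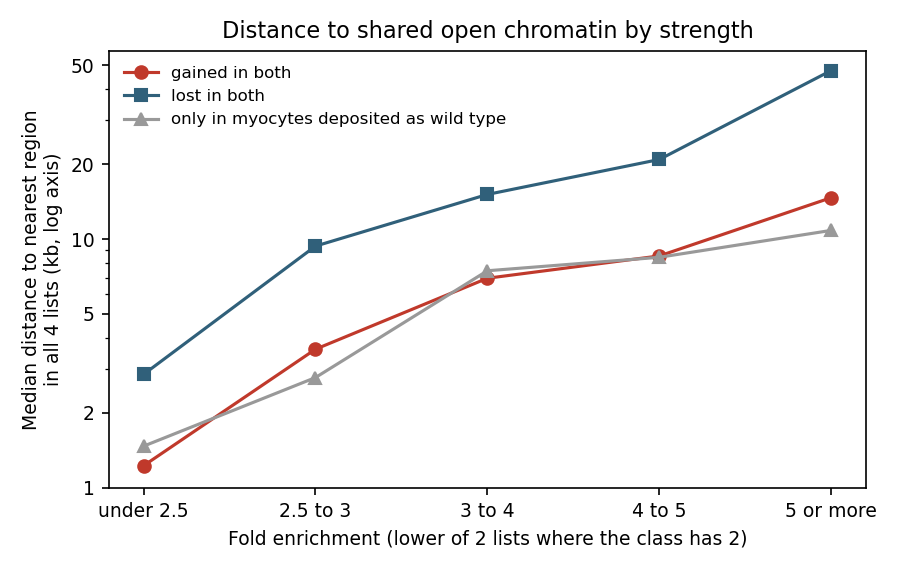
Median distance to the nearest region present in all 4 lists (vertical, kb, log axis) by fold enrichment, taken as the lower of 2 folds for regions gained or lost in both genotypes. Gained regions run from 1.23 kb under a fold of 2.5 to 14.7 kb at 5 or more, below the lost regions in every bin. Lost regions are binned by myoblast folds and gained regions by myocyte folds, which are not on one scale.

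Whether shared regions near a gained one also had higher folds in myocytes was examined last, with folds that the rule did not use directly. Each fold is set against local background, which a nearby gained peak could raise in the myocyte lists alone. These folds are thus not independent of the rule, and the part of local background was not tested. Folds are also not on one scale between stages. At the 5609 all-list regions within 10 kb of a member, the median log2 ratio of myocyte over myoblast fold was 0.17 for the MyoD-null label (0.16 to 0.18) and 0.28 for the wild-type label (0.27 to 0.30). Between 200 and 1000 kb from a member it was 0.16 and 0.36, and over all 64013 such regions 0.17 and 0.34. Beyond 1000 kb it was 0.12 (0.11 to 0.14) for the MyoD-null label and 0.33 (0.31 to 0.35) for the wild-type label. Near members the ratio was thus close to that of all such regions under the MyoD-null label, above that of the most distant ones, and under the wild-type label it was below both. Within 5 kb the values were 0.15 and 0.24.

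The same regions were also weaker in level. Within 10 kb of a member the median fold was 4.83 and 5.28 in the myocytes deposited as MyoD-null and wild type, against 4.19 and 4.14 in MyoD-null and wild-type myoblasts. Between 200 and 1000 kb it was 5.16 and 6.05 in the myocytes, against 4.55 and 4.52 in the myoblasts. With the myocyte genotypes read from the peak names, the ratios within 10 kb were 0.19 for the list deposited as MyoD-null and 0.26 for the list deposited as wild type. With the genotypes as deposited, the ratios within 10 kb of regions lost in both genotypes were 0.19 and 0.38 (MyoD-null and wild-type labels). The median folds there were 4.77 and 5.57 in the myocytes deposited as MyoD-null and wild type. In MyoD-null and wild-type myoblasts they were 4.15 and 4.14. In each list this was below the median between 200 and 1000 kb from lost regions. The lower level was thus not particular to the surroundings of gained regions. None of these differences was tested.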

How the data were processed

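The deposited files were 4 narrowPeak lists, 1 for each group of 3 ATAC-seq samples. Per the submitters' processing notes, reads were handled with MACS2 and deepTools on mm9, with no versions given. Peak names refer to merged alignments with a MAPQ30 tag. The aligner, the caller's settings and any shift of reads for the transposase are unrecorded in the labels and headers. The deposited fold enrichment is a ratio of reads at the summit to local background, made by the authors. Each peak also has a deposited score, which was not used, and −log10 p and −log10 q values as deposited (lowest −log10 q 2.02). The 6 RNA-seq samples were not analysed here.

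Peaks on chromosomes 1 to 19 numbered 86575 and 109753 (myocytes deposited as MyoD-null and wild type), 100192 (MyoD-null myoblasts) and 96420 (wild-type myoblasts). Peaks overlapping by at least 1 bp were merged, and each region took the fold and summit of its strongest peak per list. Distances run between region edges. Reads and local background at a summit are the whole number of reads and the background that give both deposited fold and −log10 p, which matched within 0.001. The genome-wide background came from the spacing of the 12 most frequent folds, and a local background within 0.01 reads of it counted as genome-wide. Total reads per sample are unknown. Intervals are 95% Wilson intervals for shares and binomial order-statistic intervals for medians.

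Named regions were the 12 with the highest lower fold, the 3 widest, the 3 weakest by −log10 q with 3 just outside, and the 5 fullest windows of 100 kb (ties by summed lower fold). The members, lists and rules were chosen with earlier results of these data known. Merging, distances and read recovery were tested on 20000 simulated regions, and 9 of 9 known quantities were recovered. Scripts ran under matplotlib 3.10.9, statsmodels 0.14.6, scipy 1.17.1, pandas 2.3.3, numpy 2.4.6 and Python 3.11.15. Motif shares and gene lists were planned and not run, since the tables used here belong to another build.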

Additional observations from a re-analysis of the deposited data

Results flagged for a closer look

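Chromosome X lay outside the rule that defined the gained regions and was looked at because it carried a signal of its own. There, 146 of 2598 merged regions, or 5.62% (95% Wilson interval 4.80 to 6.57), had a peak of both myocyte lists and of no myoblast list. On each of chromosomes 1 to 19 the share was 3.97% or lower. Their median folds were 3.68 in the myocytes deposited as MyoD-null and 4.29 in those deposited as wild type. Regions of chromosome X lost in both genotypes numbered 57, or 2.19%, below the lowest autosomal share of 3.82%. No source used here gives the sex of the animals, and its part in these shares was not tested. None of the 27 regions of chromosome Y was gained in both genotypes, a count that allows a share of up to 11.1% by a limit of 3 regions of 27 and 12.5% by the Wilson interval.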

How the results depend on the processing

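The number of gained regions stayed within 1.5 times the 4713 under all 6 alternatives that could change it. It was 4549 with a −log10 q of 5 or more in all lists, 3342 with that limit in the myocyte lists alone, 4423 with lists of equal length (86575 peaks), 4218 without a myoblast peak within 500 bp, 3687 with myocyte peaks overlapping reciprocally by 50%, and 4859 with chromosome X. Membership moved more than the number: 3342 of the 4713 remained with the stricter limit in all lists and 3083 with lists of equal length. Of 54 recomputed values, 32 lay within the interval of the value reported (for the number, within 1.5 times) and 22 lay outside it. Only the log2 ratios could change sign, and none of them did. With the stricter limit in all lists, the median folds were 3.54 (MyoD-null label) and 4.17 (wild-type label), 76.7% of summits lay within 100 bp, and the distance to all-list regions was 5.88 kb. With that limit in the myocyte lists alone, they were 3.54 and 4.16, 78.7%, and 125.5 kb to the next member. Lists of equal length gave 4.61 (wild-type label), 76.3%, 6.12 kb to all-list regions and a log2 ratio of 0.30 near members (wild-type label). Without nearby myoblast peaks, the distances were 102.9 kb to the next member and 6.01 kb to all-list regions. Reciprocal overlap gave 3.82 (wild-type label), 78.3% and 118.2 kb to the next member. Distances between summits gave 6.17 kb to all-list regions. The log2 ratios within 5 kb of a member were 0.15 and 0.24 (MyoD-null and wild-type labels), and with genotypes read from the peak names, an alternative chosen after seeing the data, 0.19 and 0.26. The cause of these shifts was not tested. Fewer members by construction lie further apart. No paired analysis was possible because each group has 1 merged list, and for that reason no replicate could be left out. Depth limits the class on its absent side: a summit under 21 or 20 reads in MyoD-null or wild-type myoblasts went unlisted.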
